A study of Glycine max with 36 samples.

Results

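The transcripts of 65 soybean genes swung at least 4-fold over 1 sampled day and at most 2.5-fold over the next. They were chosen on measured values. The 3 replicates of each time point were averaged, and a gene was a member if its mean over the 36 libraries was 5 FPKM or more, its highest mean divided by its lowest mean plus 0.1 was 4 or more from ZT0 to ZT20, and the same quotient was 2.5 or less from ZT24 to ZT44. These quotients are called the first-day and the second-day range. The rule found 65 of 47011 gene identifiers, out of 15627 with a mean of 5 FPKM or more and 2029 with a first-day range of 4 or more. FPKM is a fragment count per gene, divided by gene length and by the number of mapped fragments.

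All groups shared 1 genotype and 1 regime. Seedlings of cultivar Williams 82 grew in soil for 9 days at 28 °C with 16 h of light and 8 h of dark, the light was switched to constant conditions on day 10, and sampling began at ZT0 (zeitgeber time, in h) of day 11, so the first sampled day was not the first after the switch. The groups are the 12 time points from ZT0 to ZT44, taken every 4 h, with 3 libraries each from the unifoliolate leaves, the first pair of true leaves. Each library pooled leaves of 3 seedlings, and the labels call the 3 libraries of a time point biological repeats, so p-values measure the spread between pools. The later 6 time points, ZT24 to ZT44, are the second 24 h and are set against the first 24 h, ZT0 to ZT20. Each sampled day has 1 course, so age and time since the switch cannot be told apart from day.

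In plants the circadian clock is a network of transcription factors that repress and activate one another in turn through the day, and it imposes a daily rhythm on genes of photosynthesis, starch use, growth and defence. In constant conditions the clock runs on without a cue from light or dark, and rhythms measured in whole leaves are known to lose amplitude over days for some transcripts and to persist in others. Soybean carries many genes in several copies because its genome was duplicated. The files give genes by identifier only. A search of the RefSeq table for the Glycine_max_v4.0 assembly (59048 genes) matched 0 of 47011 identifiers, so no gene name, role, position or sequence is given, the leaf could not be checked against its marker genes, and few identifiers are printed.

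The libraries were even in depth as far as it can be read. Genes seen in single reads (110) put each library at 0.795 to 1.14 of the median one, and the absolute depth is unknown. Pearson's r between replicates, across genes, was 0.98 or more in 30 of 36 pairs. Outside ZT40 and ZT44 it was 0.979 to 0.992. At ZT40 it was 0.962, 0.969 and 0.947 between replicates 1 and 2, 1 and 3, and 2 and 3. The same pairs had 0.969, 0.972 and 0.994 at ZT44, and the last was the highest of all 36 pairs. A group of 3 libraries, namely replicate 2 of ZT40 and replicates 2 and 3 of ZT44, stood apart: they scored 34.0 to 39.3 on principal component 4, and the other 33 scored -24.8 to 17.5. All 3 lie in the second 24 h, and the main counts and medians are also given without them. The level of the median gene moved by 0.57 (log2) between time points, so values relative to it are also given. A transcript level per leaf cannot tell fewer cells of a type from less RNA per cell.

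The 65 members lay at the lower edge of a broad cloud. Their second-day range had a median of 2.27 (1.496 to 2.497) and their first-day range a median of 4.46 (4.01 to 29.3). The limits cut through a dense field, since 45 members had a first-day range under 5 and 53 a second-day range over 2. The highest second-day range inside was 2.497 and the lowest outside, among genes with the first-day range, was 2.53. The lowest first-day range inside was 4.01 and the highest outside 3.99. A further 124 genes met the first limit with a second-day range above 2.5 and up to 3, and 362 met the second with a first-day range from 3 to below 4. These values chose the members and are given as a description.

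**Figure D1:**
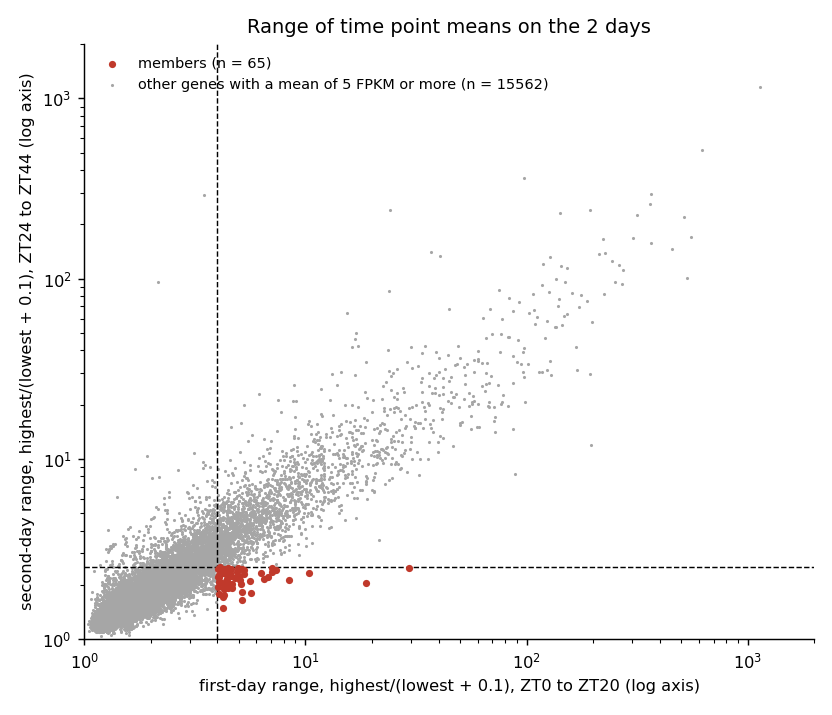
Second-day range (vertical, log axis) against first-day range (horizontal, log axis) for genes with a mean of 5 FPKM or more, with the limits of 2.5 and 4 as dashed lines. The 65 members (red) fill the lower edge of the cloud next to both limits, and 45 of them have a first-day range under 5.

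The change over ZT24 to ZT44 passed the test for 58 of the 65 members, against 89.2% of all 27449 genes tested, the same share. On the first day, from ZT0 to ZT20, 65 of 65 passed, against 88.7% of all genes. The 7 that did not pass on the second day had ranges of 1.66 to 2.43. Their median SD between replicates of a time point was 0.52 on the log2 scale, against 0.22 in the other 58. A moderated F-test in limma was used on log2(FPKM + 1) with Benjamini-Hochberg adjustment over all genes at 0.05. The rule used these contrasts, so nothing is read from the counts.

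The second-day course was like the first-day one in most members, with a median r below that of other genes. The 6 second-day means of a member correlated with its 6 first-day means with a median r of 0.88 (log2 scale, n = 6 times of day, quartiles 0.75 and 0.93). The median over the 3 replicate numbers taken alone was 0.76, 0.79 and 0.85. An r of 0.8 or more was seen in 67.7% of the members (44), against 75.5% of all 15627 genes with the same mean. An r under 0.5 was seen in 9.23% (6), against 6.44% of those genes, and an r below 0 in 0 of 65, against 1.497%. The 1964 genes with the same first-day range and a second-day range over 2.5 had a median of 0.95, and all 15627 genes had 0.90. The points share their libraries and a course of 6 times has few free values, so no p is given. The highest second-day mean fell at the same time of day as the first-day one for 33 members, 4 h later for 13, 4 h earlier for 11, and 8 h or more apart for 8. The time was kept by 50.8% of the members, against 69.9% of the 1964 genes with a larger second-day range and 55.6% of all 15627 genes. The high was 4 h earlier in 16.9% of the members, against 4.94% and 8.26% of those genes. These differences were not tested. Without the 3 libraries that stood apart the median r was 0.84.

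**Figure D2:**
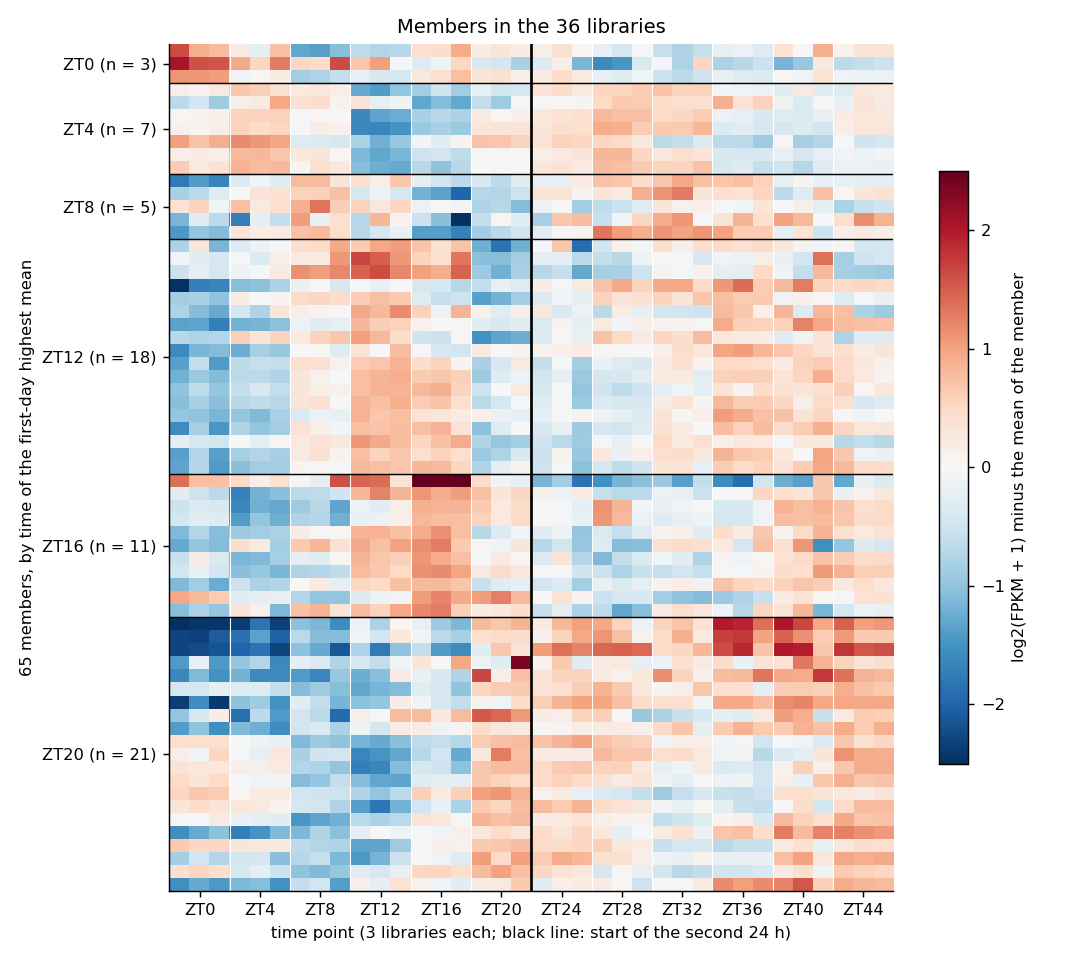
log2(FPKM + 1) of the 65 members in the 36 libraries, each minus the member's own mean, in rows grouped by the time of the first-day highest mean and in columns by time point with 3 libraries each. Left of the black line blue and red alternate strongly, right of it the same rows are paler, and the ZT20 rows are mostly red from ZT20 on.

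The smaller range came with higher lows more often than with lower highs. The lowest mean was higher in the second 24 h than in the first for 61 of 65 members, by 2-fold or more for 31. The highest mean was lower for 36 of 65, by 2-fold or more for 4. The median change was 0.91 (log2) for the lowest mean and -0.03 for the highest. For 51 members the low moved more than the high. In 32 members the low was higher and the high was lower, in 29 the low was higher and the high was not lower, and in 4 the low was not higher. Genes with the same first-day range and a second-day range over 2.5 had median changes of 0.33 for the lowest and -0.08 for the highest mean, and 75.2% of them had a higher low and 60.2% a lower high. Over all 15627 genes the low was higher in 62.3% and the high lower in 49.3%, so the members' share of lower highs, 55.4%, lay between these backgrounds, while their share of higher lows, 93.8%, was above both. The shares were not tested. The rule used these means, and it fixes that the 2 ends approach each other but not which of them moves. Part of the excess of higher lows over these backgrounds is thus built in by the choice. After rescaling to the median gene, the same counts over the 65 members were 60 for a higher low and 34 for a lower high, and without the 3 libraries that stood apart they were 61 and 34.

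**Figure D3:**
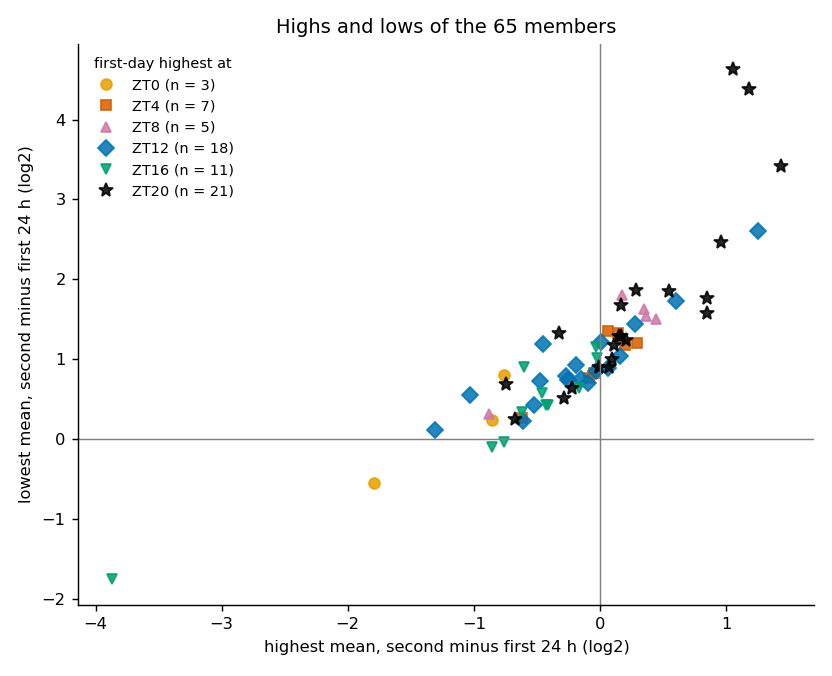
Change of the lowest time point mean (vertical) against change of the highest (horizontal), second minus first 24 h in log2, 1 mark per member, with symbols for the time of the first-day highest mean. The 61 members above the horizontal line had a higher low on the second day, and the 36 left of the vertical line had a lower high.

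The level as a whole was also higher in more members than lower. Over matched times of day the level of 50 of the 65 members changed, against 48.6% of all genes tested. It rose in the second 24 h for 38, against 29.8% of all genes, and fell for 12, against 18.8%. The median difference was 0.40 (log2) in the members and 0.03 over all genes. Rises that passed ran from 0.17 to 2.63 with a median of 0.59, and falls from -2.02 to -0.22 with a median of -0.47. On a scale where 0 is the first-day lowest and 1 the first-day highest mean (log2), the second-day mean level lay at a median of 0.69, against 0.57 in the 1964 genes with a larger second-day range. It lay over 0.75 for 27 members, from 0.25 to 0.75 for 36 and under 0.25 for 2, which is 41.5%, 55.4% and 3.08% of the members, against 21.3%, 67.7% and 10.9% of all 15627 genes. For 9 members (13.8%, against 7.25% of all genes) it lay over 1, which means that the average of the second 24 h was above the first-day high. Day was tested in limma at matched times of day on the libraries the rule used, so the counts describe the members. Relative to the median gene, 36 rose and 12 fell. Without the 3 libraries that stood apart 38 rose, 12 fell and the median position was 0.71.

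By time of day, the median difference between the days was largest at the first of the 6 times, and whether the times differ was not tested. At ZT24 against ZT0 the median difference of the members was 0.51 (log2), and 31 rose while 7 fell, against 8.33% and 7.06% of all genes. At ZT28 against ZT4 it was 0.35, with 27 rises and 6 falls, against 9.19% and 5.1% of all genes. At ZT32 against ZT8 it was 0.28, with 25 rises and 3 falls (11.1% and 6.6% of all genes). At ZT36 against ZT12 it was 0.25, with 27 rises and 11 falls (9.94% and 14.1% of all genes). At ZT40 against ZT16 it was 0.25, with 29 rises and 11 falls (14.9% and 11.8% of all genes), and without the 3 libraries that stood apart 7 fell. At ZT44 against ZT20 it was 0.20, with 21 rises and 6 falls (24.3% and 9.22% of all genes), and relative to the median gene 10 fell. Without the 3 libraries that stood apart, of which 2 are from ZT44, 15 rose and 5 fell at that time. The median over all genes ran from -0.04 to 0.09 in these contrasts, all from limma with adjusted p under 0.05. With 1 replicate number left out the rises at ZT24 were 18 to 31 and those at ZT44 10 to 23, with 18 and 10 of them without replicate 1 and 18 and 13 without replicate 2. Counts at a single time of day moved with the libraries in other contrasts too. Leaving out replicate 1 gave 16 rises at ZT28 and 13 at ZT32, and the 11 falls at ZT40 were 7 without ZT16 replicate 1, without ZT16 replicate 2 or without ZT40 replicate 2.

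Time of the first-day high divided the members into 6 sets of unequal size. The high fell at ZT20 for 21 members, at ZT12 for 18, at ZT16 for 11, at ZT4 for 7, at ZT8 for 5 and at ZT0 for 3. The ZT20 set made up 32.3% of the members and 19.1% of the 1964 genes with a larger second-day range, against 13.3% of all 15627 genes. The ZT0 set made up 4.62%, 11.6% and 5.13% of the same sets. The first-day low fell at ZT0 for 23 members, at ZT12 for 15, at ZT4 and ZT20 for 9 each, at ZT8 for 5 and at ZT16 for 4. A low at ZT0 made up 35.4% of the members and 33.1% of all genes, and a low at ZT12 made up 23.1% of the members, 23.9% of the 1964 genes and 9.04% of all genes. The rule does not use the time, and these shares were not tested. The high was at the same time point in each of the 3 replicate numbers for 43 of 65. After rescaling to the median gene the rule kept 3 of 3 members at ZT0, 2 of 7 at ZT4, 4 of 5 at ZT8 and 6 of 18 at ZT12. At ZT16 it kept 2 of 11 and at ZT20 11 of 21, so membership depended most on the scaling at ZT4, ZT12 and ZT16. Counts of higher lows and lower highs by set are descriptions, to be read beside the shares of all 15627 genes given above.

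**Figure D4:**
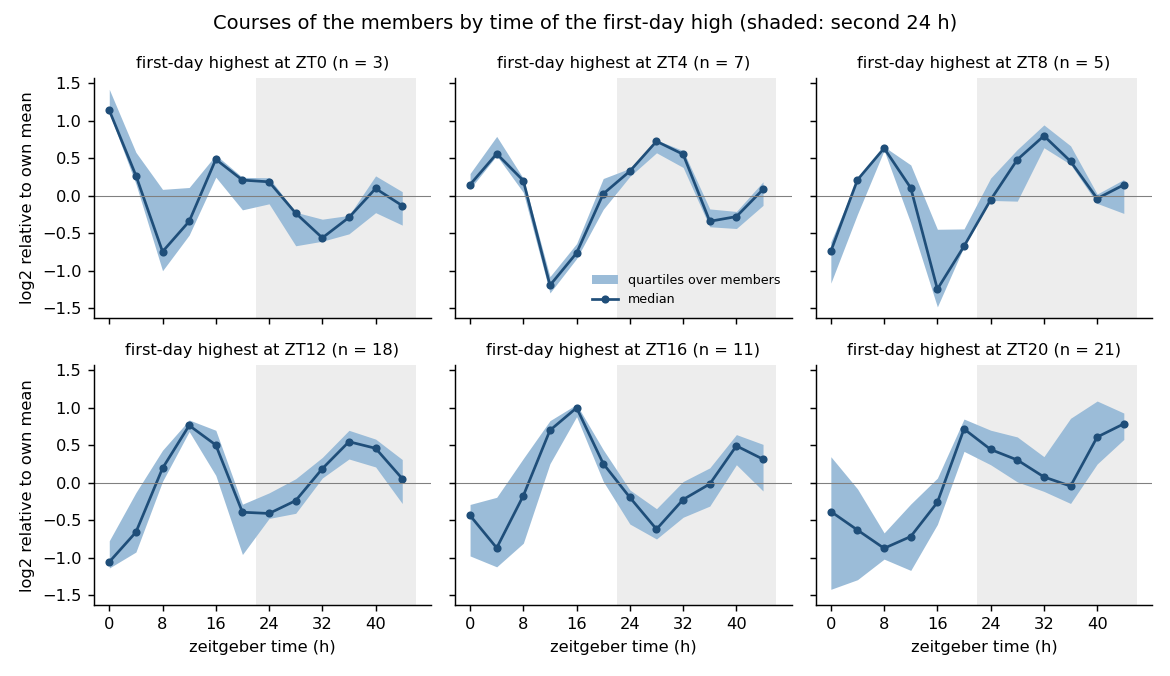
Median (line) and quartiles (band) of log2(FPKM + 1) relative to each member's own mean, over time, in 6 panels by the time of the first-day highest mean, with the second 24 h shaded. The troughs at ZT12 in the ZT4 panel and at ZT16 in the ZT8 panel are shallower a day later, while the ZT20 panel stays near or above 0 from ZT20 to ZT44.

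The 7 members with a morning high at ZT4 had a shallower trough on the second day. Their median course relative to each member's own mean was 0.56 (log2) at ZT4 and -1.20 at ZT12 on the first day, and 0.73 at ZT28 and -0.34 at ZT36 on the second. The first-day low was at ZT12 for 6 of the 7. All 7 had a higher low on the second day, with a median change of 1.18, while the high changed by a median of 0.06. Their r between the days ran from 0.88 to 0.94. In this set 6 rose in level and 1 fell, against 29.8% and 18.8% of all genes tested.

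The 5 members with a midday high at ZT8 had the highest median change of the low among the sets with 5 or more members, 1.54. Their median course was 0.64 at ZT8 and -1.25 at ZT16, then 0.80 at ZT32 and -0.04 at ZT40. In this set 4 rose in level and 1 fell, against 29.8% and 18.8% of all genes tested.

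The 18 members with a high at ZT12, late in the former light phase, had their first-day low at ZT0 (12 members) or ZT20 (6). Their median course was -1.06 at ZT0, 0.77 at ZT12 and -0.39 at ZT20, then -0.41 at ZT24, 0.55 at ZT36 and 0.06 at ZT44. All 18 had a higher low, by a median of 0.82, and 12 had a lower high. The second-day high was at the same time of day for 9 and 4 h later for 7. In level 8 rose and 3 fell, against 29.8% and 18.8% of all genes tested.

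The 11 members with a high at ZT16, when the lights had gone off in the former cycle, all had a lower high on the second day (11 of 11, median change -0.46), and the low was higher in 8, by a median of 0.43. Their median course was -0.87 at ZT4 and 1.00 at ZT16, then -0.62 at ZT28 and 0.49 at ZT40. In level 3 of the 11 rose, near the 29.8% of all genes tested, and 4 fell, against 18.8%. The 3 members with a high at ZT0 likewise had a lower high on the second day (3 of 3, median change -0.85), and 2 of them fell in level.

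The 21 members with a high at ZT20, in the former dark phase, held several shapes. Their median course was -0.38 at ZT0, -0.87 at ZT8 and 0.72 at ZT20, then 0.44 at ZT24, -0.04 at ZT36 and 0.79 at ZT44. In level 17 rose and 1 fell, against 29.8% and 18.8% of all genes tested. For 9 of them the first-day low was at ZT12, and their r between the days ran from 0.75 to 0.99. For 6 the low was at ZT0 and the high 20 h later. In all 6 the highest second-day mean was above the first-day high, by a median of 1.01 (log2), the low was higher by a median of 2.94, and the second-day level lay at 1.09 to 1.42 on the scale from first-day low to high. For these 6 the smaller second-day range went with a higher level, and the description as a damped rhythm holds for their ranges alone. Over all 65 members the lowest second-day mean was above the highest first-day mean in 4, of which 3 had their high at ZT20.

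Whether the rhythm itself differed between the days was tested by the interaction of day with a 24-h cosine and sine. It passed for 34 of 65 members, against 15.4% of all genes, and the median amplitude of the members was 0.51 (log2) in the second and 0.91 in the first 24 h, against 0.36 and 0.38 over all genes. The rule used this contrast, so the count is a description. It passed for 12 of the 18 ZT12 members, 8 of 11 at ZT16, 9 of 21 at ZT20, 3 of 7 at ZT4, 2 of 5 at ZT8 and 0 of 3 at ZT0. The 31 members that did not pass had a larger ratio of first-day to second-day range (median 2.27, against 2.02 in the 34) and a larger SD between replicates (median 0.29, against 0.20 on the log2 scale). The count depended on the libraries. It was 27 to 39 with 1 library left out and 8, 4 and 18 without replicate numbers 1, 2 and 3, each a fit on 24 libraries. Over all 27449 genes tested, 3381 to 4992 passed with 1 library left out. Without replicate numbers 1, 2 and 3 these were 752, 515 and 1456.

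Replicates that took no part in the choice were used to read the ranges again. The rule was applied to the means of 2 replicate numbers, and the chosen genes were read in the third. Of 58 genes chosen without replicate 1, 53 had a smaller range in the second than in the first 24 h of replicate 1, or 91.4%, against 61.1% of all genes with the same mean. Without replicate 2 it was 53 of 63 (84.1%, against 53.2% of all genes), and without replicate 3 it was 56 of 73 (76.7%, against 42.2%). The median ranges in the replicate left out were 2.86 in the second and 4.89 in the first 24 h for replicate 1, 2.46 and 4.11 for replicate 2, and 2.91 and 4.09 for replicate 3. The direction was seen in most chosen genes, while both limits together were met in the replicate left out by 12 of 58, 16 of 63 and 9 of 73 genes, against 0.821%, 0.492% and 0.403% of all genes. Genes with a first-day range of 4 or more in the same 2 replicates but a larger second-day range also had the smaller range on the second day in 75.4%, 79.8% and 68.8% of cases. The shares are descriptions and were not tested.

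Which genes met the rule depended on the libraries and the scaling. Of the 65, 32 had a first-day range of 4 or more in each replicate number taken alone, 11 had a second-day range of 2.5 or less in each, and 1 had both. The first-day range was the larger one in each of the 3 replicate numbers for 60. The median SD between replicates was 0.23 (log2) in the members and 0.19 in the 1964 genes with a larger second-day range. After median-ratio rescaling the rule chose 55 genes, of which 28 were among the 65, although the first-day range was larger than the second-day range for 65 of the 65 there as well (medians 2.08 in the second and 4.63 in the first 24 h). Without the 3 libraries that stood apart it chose 50 genes, 47 of them members. A set of 10 members was chosen as deposited, after rescaling, without the 3 libraries and with any 1 of the 36 libraries left out. Among these 10, 5 had the first-day high at ZT20, 3 at ZT12, 1 at ZT8 and 1 at ZT0. Their second-day low was higher in 10 of 10, and 8 rose in level, against 29.8% of all genes tested.

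The 1 member that met both limits in each replicate number was GLYMA01G44430, named after its values were seen. GLYMA01G44430 had, in FPKM of replicates 1, 2 and 3, 4.88, 4.78 and 5.77 at ZT0, 5.35, 5.39 and 4.20 at ZT4, and 2.72, 3.24 and 2.79 at ZT8. It had 2.22, 2.51 and 2.74 at ZT12, 5.40, 4.88 and 2.94 at ZT16, and 10.4, 11.3 and 11.4 at ZT20. The high was at ZT20 in each replicate. On the second day it had 8.81, 9.60 and 11.0 at ZT24, 13.5, 11.5 and 8.52 at ZT28, and 7.21, 7.73 and 11.7 at ZT32. At the end it had 9.43, 9.49 and 5.68 at ZT36, 11.3, 11.2 and 10.9 at ZT40, and 13.8, 12.1 and 11.3 at ZT44. The second-day range was 1.496 and the first-day range 4.26, and every second-day value was above every value at ZT8 and ZT12. Its level was higher by 0.98 ± 0.10 in the second 24 h (log2, SE, adjusted p = 6.975e-10, limma), with a difference of 1.37 at ZT36 against ZT12 (adjusted p = 1.041e-06) and of 0.15 at ZT44 against ZT20 (adjusted p = 0.516). Its amplitude was 0.21 in the second and 0.71 in the first 24 h, a difference it was chosen for and which is given as a description. The differences in level also come from the values that chose it.

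By the naming rule, 21 members had a first-day range of 4 or more and the same first-day high in each replicate number, 19 of them higher and 2 lower in the second 24 h by the mean of their time point means on the log2 scale, and the 2 largest ratios of first-day to second-day range are given on each side. By limma's level 15 of the 21 passed as higher, 2 as lower and 4 in neither direction. GLYMA17G34953 counts as higher by a difference of 0.00036 (log2), while its limma level is -0.04 (adjusted p = 0.849). Ranked by that level it would take the place of GLYMA13G40550, since its ratio is 2.31. The p-values of the named members come from the values that chose them and are descriptions. GLYMA06G10970 had the largest ratio of the higher ones, 11.8, with ranges of 2.49 in the second and 29.3 in the first 24 h. Those ranges are of the means. Replicates 1, 2 and 3 alone had second-day ranges of 3.77, 2.66 and 3.16, each above the limit of 2.5. The first-day range rested on a low ZT0 mean of 0.293 FPKM, to which the offset of 0.1 was added. In replicates 1, 2 and 3 GLYMA06G10970 had, in FPKM, 0.141, 0.371 and 0.368 at ZT0, 0.422, 1.06 and 0.467 at ZT4, and 2.59, 2.38 and 1.52 at ZT8. It had 5.63, 3.23 and 6.65 at ZT12, 5.48, 2.90 and 2.35 at ZT16, and 11.7, 10.7 and 12.3 at ZT20. All 3 replicates were lowest at ZT0 and highest at ZT20. On the second day it had 7.58, 12.0 and 14.0 at ZT24, 13.4, 9.81 and 5.63 at ZT28, and 9.81, 11.1 and 8.39 at ZT32. It then had 28.1, 26.3 and 18.1 at ZT36, 29.0, 22.3 and 13.4 at ZT40, and 19.3, 14.0 and 14.6 at ZT44. Every replicate at ZT24 was above every replicate at ZT0, and the highest values of the course came at ZT36 and ZT40. Its level was higher by 2.06 ± 0.18 (log2, SE, adjusted p = 7.082e-11, limma), and the interaction of day and rhythm did not pass (adjusted p = 0.388, amplitude 0.66 in the second and 1.18 in the first 24 h). Without replicate 1 the ratio of ranges was 8.61.

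GLYMA04G11230 followed nearly the same course, with an r of 0.99 to GLYMA06G10970 over the 12 time point means, the fourth highest of 2080 pairs of members. In replicates 1, 2 and 3 GLYMA04G11230 had, in FPKM, 0.229, 0.200 and 0.422 at ZT0, 0.661, 1.38 and 0.482 at ZT4, and 2.80, 1.85 and 1.85 at ZT8. It had 4.62, 3.35 and 6.21 at ZT12, 4.78, 2.77 and 2.38 at ZT16, and 7.08, 7.39 and 7.22 at ZT20. Here too ZT0 was the lowest and ZT20 the highest time point of the first day in each replicate. On the second day it had 5.57, 7.88 and 10.8 at ZT24, 12.0, 9.21 and 5.53 at ZT28, and 7.43, 10.2 and 6.12 at ZT32. It then had 18.8, 19.6 and 11.0 at ZT36, 15.7, 12.3 and 8.28 at ZT40, and 11.6, 8.53 and 8.45 at ZT44. The lowest second-day mean, at ZT32, was above the highest first-day mean, at ZT20. Replicates 1, 2 and 3 alone had second-day ranges of 3.32, 2.46 and 1.96, and the ZT0 mean was 0.284 FPKM. Its ranges on the means were 2.05 in the second and 18.8 in the first 24 h. Its level was higher by 1.70 ± 0.17 (log2, SE, adjusted p = 5.629e-10, limma). The difference was 2.79 at ZT24 against ZT0 (adjusted p = 2.702e-08) and 0.34 at ZT44 against ZT20 (adjusted p = 0.332). The interaction of day and rhythm did not pass (adjusted p = 0.150). Whether the counting shared reads between copies of a gene is not given in the sources used here, so the likeness of this pair is uncertain.

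**Figure D5:**
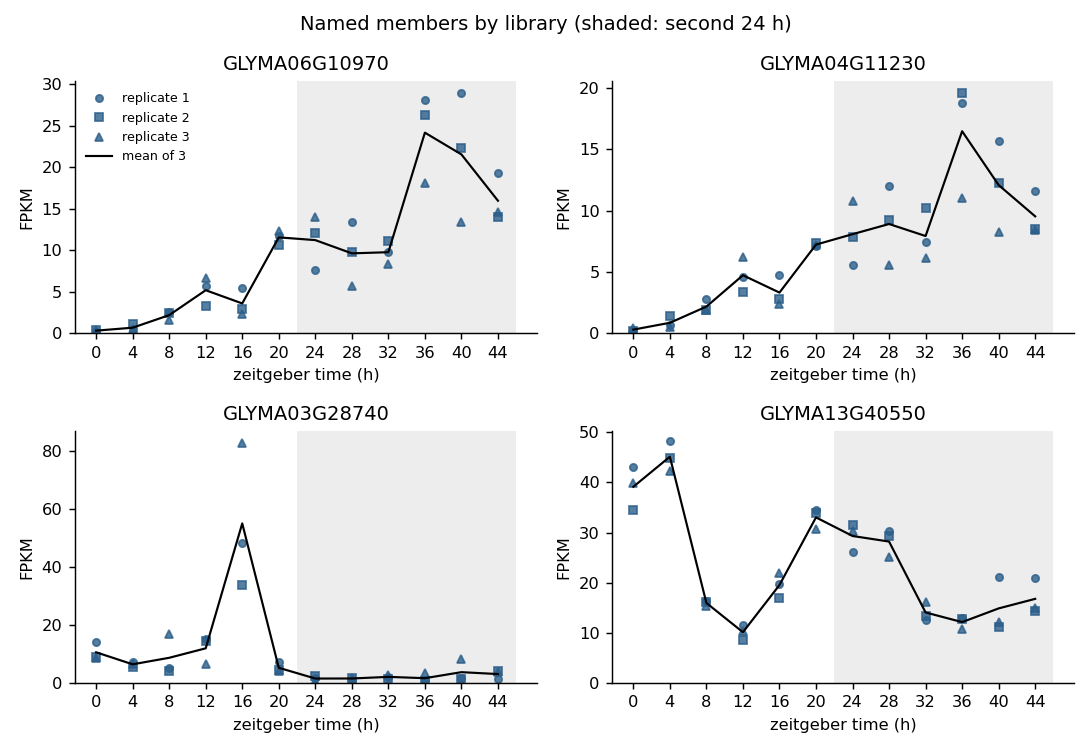
FPKM over time of the 4 members named by the rule, with 1 point per library, a line through the means of 3 replicates and the second 24 h shaded. GLYMA06G10970 and GLYMA04G11230 are higher throughout the second 24 h than at ZT0, GLYMA03G28740 has a ZT16 high far above its ZT40 values, and GLYMA13G40550 has a lower high at ZT24 and ZT28 than at ZT4.

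Of the members that were lower, GLYMA03G28740 had the larger ratio, 4.45, with ranges of 2.34 in the second and 10.4 in the first 24 h. In replicates 1, 2 and 3 GLYMA03G28740 had, in FPKM, 14.1, 8.81 and 8.71 at ZT0, 7.21, 5.38 and 6.56 at ZT4, and 4.96, 4.08 and 16.9 at ZT8. It had 15.0, 14.3 and 6.39 at ZT12, 48.4, 33.8 and 83.0 at ZT16, and 7.10, 4.41 and 4.04 at ZT20. The high at ZT16 stood above every other time point in each replicate. On the second day it had 1.605, 2.19 and 0.615 at ZT24, 1.04, 1.59 and 1.82 at ZT28, and 2.05, 1.27 and 2.81 at ZT32. It then had 0.976, 0.570 and 3.23 at ZT36, 1.49, 1.27 and 8.26 at ZT40, and 1.40, 4.09 and 3.56 at ZT44. The highest second-day mean was also at its old time of day, ZT40, but was 3.67 FPKM, against 55.1 FPKM at ZT16, and it rested on replicate 3. By that mean the gene is among the 33 members with the same time of the high. Its level was lower by 2.02 (log2 difference -2.02 ± 0.25, SE, adjusted p = 3.499e-08, limma), with a difference of -3.81 at ZT40 against ZT16 (adjusted p = 1.14e-06). No change within the second 24 h passed (adjusted p = 0.480), nor did the interaction of day and rhythm (adjusted p = 0.381). The small second-day range was one of the means. Replicates 1, 2 and 3 alone had second-day ranges of 1.90, 6.10 and 11.5. Their r between the days was -0.15, -0.48 and 0.63. The ratio of ranges on the means also rested partly on 1 library. Without ZT36 replicate 3 it was 2.48, with a second-day range of 4.20, and the gene then did not meet the rule.

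GLYMA13G40550 was the other lower one, with ranges of 2.40 in the second and 4.42 in the first 24 h and a ratio of 1.84. Replicates 1, 2 and 3 alone had second-day ranges of 2.37, 2.79 and 2.78. In replicates 1, 2 and 3 GLYMA13G40550 had, in FPKM, 43.1, 34.5 and 39.8 at ZT0, 48.3, 44.8 and 42.3 at ZT4, and 16.3, 16.1 and 15.4 at ZT8. It had 11.6, 8.49 and 10.2 at ZT12, 19.7, 17.0 and 21.9 at ZT16, and 34.4, 33.9 and 30.7 at ZT20. Its replicates lay close together, with the high at ZT4 and the low at ZT12 in each. On the second day it had 26.1, 31.5 and 30.3 at ZT24, 30.2, 29.2 and 25.1 at ZT28, and 12.6, 13.3 and 16.2 at ZT32. It then had 12.9, 12.7 and 10.8 at ZT36, 21.2, 11.2 and 12.1 at ZT40, and 21.0, 14.4 and 15.0 at ZT44. The mean at ZT36 was 12.1 FPKM, against 10.1 FPKM at ZT12, while the values at ZT28 were below those at ZT4 in every replicate and those at ZT44 below those at ZT20. Its level was lower by 0.40 (log2 difference -0.40 ± 0.09, SE, adjusted p = 0.000392, limma). The difference was -0.96 at ZT44 against ZT20 (adjusted p = 7.73e-05) and -0.66 at ZT28 against ZT4 (adjusted p = 0.00497). The interaction of day and rhythm had an adjusted p of 0.0604, and of 0.0374 after rescaling to the median gene, with amplitudes of 0.63 in the second and 0.98 in the first 24 h. The highest second-day mean was at ZT24, 4 h earlier in the day than ZT4. Without the 3 libraries that stood apart the level difference was -0.29 (adjusted p = 0.00347) and the interaction had an adjusted p of 0.137, and ZT44 was left with replicate 1.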

How the data were processed

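RNA from soybean leaves was sequenced in 36 libraries, 3 at each of 12 time points. The authors deposited 1 table of FPKM values per gene and library. Per the submitters' processing notes TopHat2 2.1.0 and HTSeq 0.6.0 were used, in roles not stated; no source used here states the genome build, the annotation or how FPKM was computed. FPKM divides by library total and gene length, so a change in a few abundant transcripts shifts all others, and a test on counts was not possible.

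Values were taken as log2(FPKM + 1), which understates changes of low genes. limma 3.58.1 (R 4.3.3), with a trend, was fitted over all 36 libraries and the 27449 genes with a mean of 1 FPKM or more, and p-values were adjusted by Benjamini-Hochberg over these at 0.05. Tests were the interaction of day with a 24-h cosine and sine, F-tests within each 24 h, and day with time of day as a factor, overall and at each of 6 times. They were tested on simulated data. Python 3.11.15 with pandas 2.3.3 gave the ranges. Alternatives were median-ratio rescaling, a pseudocount of 0.1, no filter, the replicate number as a block, and libraries left out.

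Genes were named by a rule: members with a first-day range of 4 or more and the high at the same time point in each replicate number, ranked by the ratio of first-day to second-day range, the first 2 higher and the first 2 lower in the second 24 h. The members, rule and lists were chosen with earlier results of these data known. Gene lists by function were not analysed here, since no identifier matched a description.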

Additional observations from a re-analysis of the deposited data

Results flagged for a closer look

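The difference in rhythm between the second and the first 24 h passed limma's interaction test for 34 of the 65 members, and it is listed here because effects in both days differed by a test of the difference itself. The rule chose genes for this difference, so the count adds nothing to the choice. The 3 libraries that stood apart lie in the second 24 h, and without them 31 members passed. Among all 27449 genes tested 15.4% passed in the fit on all 36 libraries, the one that gave 34 members.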

How the results depend on the processing

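The rule is sensitive to its limits. With a mean of 1 FPKM or more it chose 207 genes and with no filter 511, the 65 included in both. It chose 56 to 90 genes with 1 library left out, the 90 without ZT0 replicate 2, and 58 to 73 with 1 replicate number left out. After rescaling to the median gene the median r between the days was 0.816 and the median position of the second-day level 0.735. With libraries or replicate numbers left out r was 0.815 to 0.898, lowest without replicate 3. The cause was not tested. The members that passed for a difference in rhythm were 4 to 39 over all leave-outs (all genes 515 to 4992). The lower counts came from fits on fewer libraries. Same-numbered libraries did not deviate together on average, with a mean correlation of 0.011 over 198 pairs (-0.32 to 0.60, 42 over 0.1). Between other numbers the mean was -0.006, and 14 of the 36 libraries were closest on average to their own number. A mean over all pairs cannot tell whether some libraries were paired. With the replicate block 32 members passed for rhythm. A change of sign was looked for only in the amplitude and level differences of the 4 members named by the rule, and 0 were seen. Those members were chosen on the same values, so nothing is read from this. FPKM keeps no absolute depth, so no counting interval can be given, and the precision rests on 3 pools per time point.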

Other observations

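A pair of members had a high at ZT40, as at ZT16 a day before, and in 2 of 3 replicates a further high at ZT28. GLYMA12G16830 and GLYMA12G16990, chosen after their values were seen, had an r of 0.997 with each other over 12 time points, the highest of 2080 pairs of members, and reads shared between copies of a gene cannot be told apart. At ZT28 GLYMA12G16830 had 20.3, 16.8 and 8.01 FPKM in replicates 1, 2 and 3, and GLYMA12G16990 had 54.7, 44.9 and 23.2 FPKM. Replicate 3 had no high at ZT28, since its values at ZT32 were 8.30 FPKM in GLYMA12G16830 and 24.7 FPKM in GLYMA12G16990. At ZT28 against ZT4 GLYMA12G16830 rose by 1.77 (log2, adjusted p = 2.341e-07, limma) and GLYMA12G16990 by 2.01 (adjusted p = 3.605e-08), in all 3 replicates. Their first-day high at ZT16 had its counterpart at ZT40, with differences of -0.02 for GLYMA12G16830 (adjusted p = 0.954) and -0.03 for GLYMA12G16990 (adjusted p = 0.918). The r between the days was 0.31 and 0.26, against a median of 0.88 over the members.

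The opposite rule, a range of 4 or more in the second and of 2.5 or less in the first 24 h, found 29 genes with the same mean, against the 65 members. Among the 2080 pairs of members the median r over 12 time points was 0.15, with 100 pairs at 0.9 or more and 876 below 0.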
